A study of Homo sapiens with 18 samples.

Results

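This account follows 40 genes that are known to be induced by oestrogen through its receptor, one gene at a time, in CAMA-1 and ZR-75-1 cells given an inhibitor of the kinases CDK4 and CDK6. The genes were taken by name from a list of established targets, which was chosen with earlier results of these data known. All 40 symbols were found among the 60656 gene rows of the deposited count table. Both lines are established luminal breast cancer lines that express the oestrogen receptor, and the labels describe the cells as parental and wild-type, grown in RPMI medium with fetal bovine serum. Each line received abemaciclib at 500 nM, palbociclib at 500 nM or the same volume of the solvent DMSO for 5 days. Each of the 6 groups had 3 libraries, 18 in all, which the study's methods describe as independent biological replicates, made with a kit that reads the 3′ end of polyadenylated RNA.

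The oestrogen receptor, the product of ESR1, is a nuclear receptor that binds DNA once it has bound its hormone, most often at enhancers that lie away from promoters, and then recruits coactivators to the genes it controls. Its targets in luminal breast cells include transcription factors, transporters, secreted proteins and enzymes, and their level is used as a readout of receptor activity. CDK4 and CDK6 phosphorylate the retinoblastoma protein (Rb), and inhibitors of these kinases keep Rb unphosphorylated and hold cells before S phase. The comparisons asked how each target gene changed with each inhibitor in each line.

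The letters around the start sites of the genes were read first, because the receptor recognises a short sequence. The full response element was searched as GGTCANNNTGACC, and the core motif as AGGTCA, both on either strand, in windows from 250 bases before to 50 bases after a start site (RefSeq, GRCh38.p14). Of the 40 genes, 30 had at least 1 such window. The full element was in none of their 60 windows, and in 0.057% of all 35116 windows. The core motif was in a window of 7 of the 30 genes (ANXA9, MREG, NBL1, PDZK1, PRSS23, RAB17 and TTC39A), against 16.5% of all 27305 genes with a window, or in 8 of the 60 windows against 13.8% of all windows. A match describes these letters only, and a window without one says nothing of receptor binding elsewhere. Windows of 3 of these genes, the ones among the 7 with the largest increases described below, are printed 5′ to 3′ on the strand of the gene, with the core motif in capitals, which PRSS23 holds on the opposite strand and so reads TGACCT. In PRSS23 the match began 20 bases before the start site, in PDZK1 69 bases before it and in ANXA9 49 bases before it.
PRSS23, chr11:86790821-86791120, plus strand: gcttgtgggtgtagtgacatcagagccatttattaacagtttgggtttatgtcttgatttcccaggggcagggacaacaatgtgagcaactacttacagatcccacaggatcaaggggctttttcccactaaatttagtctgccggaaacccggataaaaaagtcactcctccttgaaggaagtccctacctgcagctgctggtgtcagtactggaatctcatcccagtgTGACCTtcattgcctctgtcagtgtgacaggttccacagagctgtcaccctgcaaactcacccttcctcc
PDZK1, chr1:145707351-145707650, minus strand: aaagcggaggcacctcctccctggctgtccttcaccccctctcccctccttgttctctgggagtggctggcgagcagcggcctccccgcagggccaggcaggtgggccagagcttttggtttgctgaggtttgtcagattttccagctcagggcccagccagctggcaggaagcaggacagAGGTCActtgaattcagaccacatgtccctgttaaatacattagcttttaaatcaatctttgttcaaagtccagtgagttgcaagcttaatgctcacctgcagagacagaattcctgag
ANXA9, chr1:150982042-150982341, plus strand: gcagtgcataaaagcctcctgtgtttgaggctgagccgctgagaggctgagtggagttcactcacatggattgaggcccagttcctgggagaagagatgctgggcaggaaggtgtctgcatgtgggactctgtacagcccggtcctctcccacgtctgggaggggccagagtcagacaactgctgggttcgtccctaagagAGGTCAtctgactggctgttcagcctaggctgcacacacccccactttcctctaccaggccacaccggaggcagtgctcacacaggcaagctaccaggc

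Library totals ran from 2308442 to 4146549 counts, and the 40 genes together took 0.205 to 0.487% of them. Levels below are given in CPM, counts scaled to a common library total with TMM factors, and 1 count stood for 0.241 to 0.433 CPM before that scaling. No 2 replicates were the same library, since counts of the 18 replicate pairs differed with a chi-square of 1.83 to 5.18 per degree of freedom. Luminal markers (ESR1, GATA3, FOXA1, KRT8, KRT18 and EPCAM) were all present, at summed levels of 3252 to 3959 CPM in CAMA-1 and 2767 to 3663 CPM in ZR-75-1. KRT5 and COL1A2 were at 0 in all libraries, KRT14, TP63 and the leukocyte gene PTPRC did not exceed 0.952 CPM, and VIM did not exceed 3.12 CPM. COL1A1 was present at 10.7 to 33.2 CPM. In CAMA-1 with DMSO, mitochondrially encoded genes held 15.7 ± 0.87% of all counts (SD, n = 3), which was 24.8 ± 1.37% with abemaciclib and 23.6 ± 1.15% with palbociclib. The group means in ZR-75-1 were 18.98 to 20.2%. Leaving these genes out before scaling changed no call of the 40 genes against DMSO. For 27 members another annotated gene lies on the opposite strand and for 14 on the same strand, so that their counts may be shared. Examples are LTBR opposite SCNN1A, FZD4 opposite PRSS23, HDDC2 opposite TPD52L1 and METTL25B opposite ISG20L2.

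In every comparison with DMSO the members called higher outnumbered those called lower. PRSS23, a secreted protease, PDZK1, a scaffold of transporters, and the transcription factor EGR3 were among the genes that rose furthest, whereas the adaptor SFN, the lactate transporter SLC16A1 and the elongase ELOVL2 fell with both inhibitors in CAMA-1. Genes were called higher or lower where the adjusted p was under 0.05 (quasi-likelihood F test of edgeR, Benjamini-Hochberg adjustment over all genes tested), and 38 of the 40 had enough counts to be tested in each line. With abemaciclib in CAMA-1, 26 of the 38 were called higher, against 20.3% of all tested genes, and 4 were called lower, against 20.1%. With palbociclib in CAMA-1, 28 were called higher, against 18.4% of tested genes, and 3 were called lower, against 18.7%. In ZR-75-1, 24 of 38 were called higher with abemaciclib, against 17.9% of tested genes, and 2 lower, against 18.3%. With palbociclib in ZR-75-1, 25 were called higher, against 14.5%, and 2 lower, against 13.4%. The share called higher was thus 68.4%, 73.7%, 63.2% and 65.8% of the tested members in the same order. Because the members were chosen with earlier results of these data known, these shares do not come from a list chosen independently of the data.

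The median log2 fold change of the tested members in CAMA-1 was 0.62 for abemaciclib and 0.82 for palbociclib, and in ZR-75-1 the same medians were 0.50 and 0.53. Over all tested genes the 4 medians lay between −0.0080 and 0.010. Called increases of at least 2-fold were fitted for 12 members (abemaciclib) and 14 members (palbociclib) in CAMA-1, against 11 and 10 in ZR-75-1. The share of all tested genes with such an increase was not computed. The CAMA-1 counts include EGR3, PDZK1, KCNK15 and PRSS23, and with palbociclib SCNN1A, which passed the filter only with the inhibitor libraries, as described below. The same holds for KCNK15, PRSS23 and ANXA9 in the ZR-75-1 counts. The summed level of the 40 genes was 2021 ± 38.5 CPM with DMSO in CAMA-1 (SD, n = 3), 2773 ± 42.1 CPM with abemaciclib and 2958 ± 4.68 CPM with palbociclib. In ZR-75-1 it was 3194 ± 72.3 CPM with DMSO, 4859.9 ± 36.9 CPM with abemaciclib and 4677 ± 66.6 CPM with palbociclib. RNA came from whole cultures, so that more cells with a transcript and more transcript per cell cannot be told apart.

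Some genes passed the filter on low counts only with the help of the inhibitor libraries. In CAMA-1, EGR3, PDZK1, SCNN1A, KCNK15, PRSS23 and RAPGEFL1 had fewer than 3 DMSO libraries over the count minimum, and in ZR-75-1 the same held for FHL2, KCNK15, PRSS23 and ANXA9. Among the 32 members of CAMA-1 whose 3 DMSO libraries all passed, abemaciclib gave 22 higher and 4 lower calls, and palbociclib 23 higher and 3 lower ones. Among the 34 such members of ZR-75-1, 21 were higher and 2 lower with abemaciclib, and 22 higher and 2 lower with palbociclib. The median log2 fold change of such members was 0.51 for abemaciclib and 0.63 for palbociclib in CAMA-1. In ZR-75-1 the medians were 0.50 and 0.52. The share of all genes called under the same restriction was not computed, so these counts have no matching background. FHL2 and RAB31 were not tested in CAMA-1, nor were OLFML3 and TSKU in ZR-75-1, for want of counts.

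**Figure D1:**
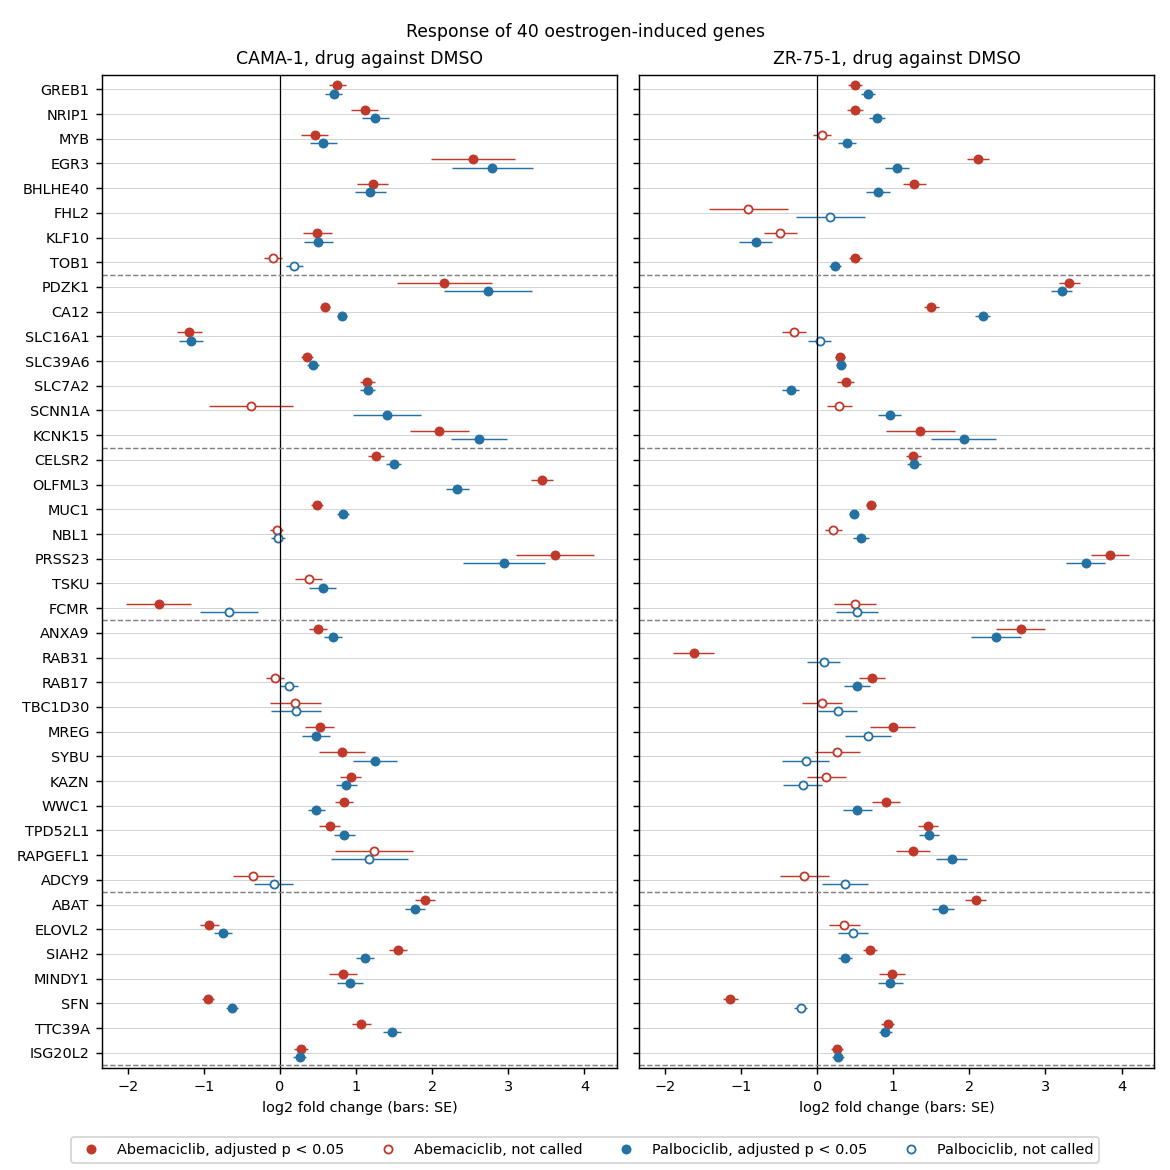
Log2 fold change against DMSO of each of the 40 genes (rows, grouped by role between the dashed lines) in CAMA-1 (left) and ZR-75-1 (right), with abemaciclib in red and palbociclib in blue. Bars are standard errors, filled points were called and open points were not, and genes without a point were not tested. Most points lie right of 0 in both lines, with PRSS23 furthest right in ZR-75-1 and SFN, SLC16A1 and ELOVL2 left of 0 in CAMA-1.

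Of the 36 members tested in all 4 comparisons with DMSO, 19 were called higher in all 4 and none was called lower in all 4. Of these 19, EGR3, PDZK1, KCNK15, PRSS23 and ANXA9 passed the filter in at least 1 line only with the help of the inhibitor libraries. Of the 10124 genes tested in all 4 comparisons, 4.47% were higher in each and 5.48% were lower in each. Both inhibitors of a line were compared with the same 3 DMSO libraries, so that their calls are not independent of each other. The genes are described by role below, most of them with their level in every library, in replicate order within a group, and the others mainly by fold changes. Counts by role include the genes that passed the filter only with the help of the inhibitor libraries. These counts are to be read beside the shares of all tested genes given above. Values after ± are standard errors for log2 fold changes (3 libraries per group). A call in only 1 line or with only 1 inhibitor is not itself a difference. Differences that were called when tested are listed after the role groups, and those not listed there were not called. Between the lines these include RAPGEFL1 and MYB with either inhibitor, RAB17 and TOB1 with palbociclib, and SYBU with abemaciclib. Between the inhibitors they include FCMR in CAMA-1 and KLF10 in ZR-75-1.

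Among the nuclear regulators, 6 of 7 tested members were called higher with each inhibitor in CAMA-1 and none lower. In ZR-75-1 5 of 8 were higher and none lower with abemaciclib, and 6 of 8 were higher and 1 lower with palbociclib. EGR3 (ENSG00000179388.9) encodes a zinc finger transcription factor of the early growth response family. In CAMA-1 it was near the detection limit, at 0.997, 0 and 1.42 CPM with DMSO, 4.27, 5.73 and 6.03 CPM with abemaciclib and 6.35, 6.66 and 5.89 CPM with palbociclib. All 6 inhibitor libraries lay above the DMSO libraries, with log2 fold changes of 2.53 ± 0.55 for abemaciclib (adjusted p = 0.00023) and 2.79 ± 0.53 for palbociclib (adjusted p = 3.78e-05). Without DMSO replicate 3 they were 3.27 and 3.53. ZR-75-1 had more of this transcript, with 17.7, 21.4 and 14.9 CPM with DMSO, 76.7, 77.2 and 81.7 CPM with abemaciclib and 40.6, 32.7 and 38.1 CPM with palbociclib. The groups of ZR-75-1 did not overlap, abemaciclib being highest, and the log2 fold changes were 2.12 ± 0.15 for abemaciclib (adjusted p = 4.82e-18) and 1.04 ± 0.16 for palbociclib (adjusted p = 4.53e-07).

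NRIP1, a corepressor of nuclear receptors that is itself a receptor target, was measured in CAMA-1 at 13.6, 14.4 and 14.7 CPM with DMSO, 28.3, 33.9 and 31.1 CPM with abemaciclib and 28.6, 37.3 and 36.7 CPM with palbociclib. Every inhibitor library exceeded the DMSO libraries, and NRIP1 rose by 1.11 ± 0.18 for abemaciclib (adjusted p = 2.12e-06) and 1.25 ± 0.17 for palbociclib (adjusted p = 1.4e-07) on the log2 scale. The corresponding levels of NRIP1 in ZR-75-1 were 70.6, 61.1 and 65.4 CPM with DMSO, 89.0, 102 and 86.4 CPM with abemaciclib and 126, 113 and 99.6 CPM with palbociclib. Again no inhibitor library overlapped DMSO, with log2 fold changes of 0.50 ± 0.11 for abemaciclib (adjusted p = 0.000227) and 0.78 ± 0.11 for palbociclib (adjusted p = 3.43e-08).

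GREB1, an early oestrogen-induced gene whose product acts as a cofactor of the receptor, stood in CAMA-1 at 48.5, 59.5 and 63.9 CPM with DMSO, 103, 91.3 and 95.9 CPM with abemaciclib and 86.0, 100.2 and 96.0 CPM with palbociclib. It rose with both inhibitors without overlap of the groups, by 0.75 ± 0.11 for abemaciclib (adjusted p = 3.31e-07) and 0.70 ± 0.11 for palbociclib (adjusted p = 1.16e-06) on the log2 scale. For GREB1 in ZR-75-1 the levels were 81.5, 92.4 and 81.6 CPM with DMSO, 124, 109.7 and 128 CPM with abemaciclib and 131, 136 and 139 CPM with palbociclib. These rises, also without overlap, came to log2 0.50 ± 0.10 for abemaciclib (adjusted p = 3.58e-05) and 0.67 ± 0.09 for palbociclib (adjusted p = 1.07e-07).

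BHLHE40, a basic helix-loop-helix repressor linked to the circadian clock, was found in CAMA-1 at 15.0, 15.8 and 8.31 CPM with DMSO, 31.2, 29.5 and 27.3 CPM with abemaciclib and 30.1, 25.2 and 31.2 CPM with palbociclib. The DMSO libraries were the lowest 3, and the log2 fold changes were 1.22 ± 0.20 for abemaciclib (adjusted p = 3.41e-06) and 1.19 ± 0.20 for palbociclib (adjusted p = 4.92e-06). Its ZR-75-1 levels were 26.6, 19.0 and 30.8 CPM with DMSO, 56.0, 55.5 and 73.3 CPM with abemaciclib and 43.1, 45.3 and 44.2 CPM with palbociclib. There, too, DMSO was lowest, abemaciclib was highest without overlap, and BHLHE40 rose by log2 1.27 ± 0.15 for abemaciclib (adjusted p = 5.61e-10) and 0.80 ± 0.15 for palbociclib (adjusted p = 4.85e-05).

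KLF10, a zinc finger factor first described as an early gene of TGF-β signalling, was called in opposite directions in the lines. Its levels in CAMA-1 were 16.3, 28.4 and 16.6 CPM with DMSO, 29.4, 27.8 and 27.3 CPM with abemaciclib and 23.5, 32.4 and 30.2 CPM with palbociclib. The second DMSO library fell within the range of the inhibitor libraries, so that the groups overlapped, and the log2 fold changes were 0.49 ± 0.19 for abemaciclib (adjusted p = 0.0369) and 0.50 ± 0.19 for palbociclib (adjusted p = 0.0306). With abemaciclib this call was lost without DMSO replicate 1 or 3, or abemaciclib replicate 1, 2 or 3 (log2 0.34 to 0.51, adjusted p = 0.0624 to 0.192), and with palbociclib without DMSO replicate 1 or 3, or palbociclib replicate 2 or 3 (log2 0.36 to 0.47, adjusted p = 0.0832 to 0.172). In ZR-75-1, KLF10 was at 20.2, 18.7 and 30.8 CPM with DMSO, 14.9, 15.6 and 19.3 CPM with abemaciclib and 11.8, 12.6 and 15.3 CPM with palbociclib. The 3 palbociclib libraries lay below all DMSO libraries, and the log2 fold changes were −0.49 ± 0.22 for abemaciclib (adjusted p = 0.0718) and −0.80 ± 0.22 for palbociclib (adjusted p = 0.00327), so that only palbociclib was called. That call was lost without DMSO replicate 3 (log2 −0.56, adjusted p = 0.0834).

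Of the remaining nuclear regulators, MYB, a transcription factor whose elongation is released by oestrogen, rose in CAMA-1 from 17.7 ± 1.15 CPM with DMSO (SD, n = 3) to 24.4 ± 3.03 CPM with abemaciclib and 26.3 ± 1.75 CPM with palbociclib, with log2 fold changes of 0.45 ± 0.18 for abemaciclib (adjusted p = 0.0419) and 0.57 ± 0.18 for palbociclib (adjusted p = 0.00925). The abemaciclib call was lost without DMSO replicate 1, 2 or 3, or abemaciclib replicate 1 or 2 (log2 0.40 to 0.51, adjusted p = 0.0504 to 0.138). In ZR-75-1 the log2 fold changes of MYB were 0.06 ± 0.12 for abemaciclib (adjusted p = 0.722) and 0.39 ± 0.11 for palbociclib (adjusted p = 0.00637), with overlap of the libraries, and the palbociclib call was lost without DMSO replicate 1, or palbociclib replicate 3 (log2 0.32 to 0.34, adjusted p = 0.0507 to 0.0573). TOB1, an antiproliferative adaptor of messenger RNA deadenylation, was called higher in ZR-75-1, by 0.50 ± 0.08 for abemaciclib (adjusted p = 9.48e-07) and 0.24 ± 0.08 for palbociclib (adjusted p = 0.0225), and its palbociclib call, whose libraries overlapped DMSO, was lost without DMSO replicate 2 or 3, or palbociclib replicate 2 (log2 0.18 to 0.20, adjusted p = 0.097 to 0.17). In CAMA-1, TOB1 had log2 fold changes of −0.09 and 0.19, neither called. FHL2, a LIM domain cofactor, was not tested in CAMA-1 and was called with neither inhibitor in ZR-75-1. Its 3 DMSO libraries in CAMA-1 held 2, 2 and 1 counts, and in ZR-75-1 its log2 fold changes were −0.91 ± 0.52 for abemaciclib (adjusted p = 0.18) and 0.17 ± 0.45 for palbociclib (adjusted p = 0.825).

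Of the 7 members for transporters, channels and pH control, CAMA-1 had 5 called higher and 1 lower for abemaciclib and 6 higher and 1 lower for palbociclib. ZR-75-1 had 5 higher and none lower for abemaciclib, and 5 higher and 1 lower for palbociclib. PDZK1 (ENSG00000174827.14, chromosome 1, 145670852 to 145708148, minus strand), a scaffold that holds transporters at the membrane, whose promoter letters are printed above, was close to the detection limit in CAMA-1, at 0.665, 1.05 and 0.475 CPM with DMSO, 2.67, 1.76 and 5.08 CPM with abemaciclib and 5.38, 4.34 and 4.85 CPM with palbociclib. The DMSO libraries held 2, 3 and 2 counts. Relative to their sum, and scaled for library totals, the ratio was 4.71 with abemaciclib (95% counting interval 2.03 to 12.7) and 7.04 with palbociclib (3.18 to 18.4), with no overlap of the libraries. The adjusted p of the fit was 0.00498 and 0.000184, and the abemaciclib call was lost without abemaciclib replicate 3 (log2 1.66, adjusted p = 0.0727). In ZR-75-1, PDZK1 was well counted, at 15.4, 12.3 and 11.2 CPM with DMSO, 135, 115 and 139 CPM with abemaciclib and 108, 123 and 131 CPM with palbociclib. The inhibitor libraries lay far above DMSO, and the log2 fold changes were 3.31 ± 0.14 for abemaciclib (adjusted p = 1.24e-27) and 3.21 ± 0.14 for palbociclib (adjusted p = 1.09e-26).

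CA12 (ENSG00000074410.14, chromosome 15, 63321378 to 63381846, minus strand), a carbonic anhydrase of the cell surface, was abundant in CAMA-1, with 324, 322 and 355 CPM with DMSO, 504, 511 and 496 CPM with abemaciclib and 606, 561 and 596 CPM with palbociclib. The groups were fully separated, with log2 fold changes of 0.59 ± 0.07 for abemaciclib (adjusted p = 8.24e-10) and 0.81 ± 0.07 for palbociclib (adjusted p = 1.15e-13). In ZR-75-1 it started lower, and CA12 levels were 40.8, 49.1 and 48.8 CPM with DMSO, 142, 123 and 128 CPM with abemaciclib and 202, 218 and 208 CPM with palbociclib. Palbociclib libraries were highest and DMSO libraries lowest, with log2 fold changes of 1.5 ± 0.10 for abemaciclib (adjusted p = 3.04e-18) and 2.18 ± 0.10 for palbociclib (adjusted p = 1.37e-25).

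KCNK15, a tandem-pore potassium channel, was scarce in both lines, and in CAMA-1 it was at 1.99, 1.75 and 3.09 CPM with DMSO, 14.4, 6.61 and 8.57 CPM with abemaciclib and 20.8, 10.1 and 12.5 CPM with palbociclib. All inhibitor libraries exceeded DMSO, with log2 fold changes of 2.09 ± 0.39 for abemaciclib (adjusted p = 2.39e-05) and 2.61 ± 0.37 for palbociclib (adjusted p = 1.53e-07). ZR-75-1 held KCNK15 at 1.28, 2.41 and 3.39 CPM with DMSO, 7.44, 7.79 and 2.7 CPM with abemaciclib and 11.5, 7.60 and 7.80 CPM with palbociclib. The third abemaciclib library fell within the DMSO range, and the log2 fold changes were 1.36 ± 0.45 for abemaciclib (adjusted p = 0.015) and 1.92 ± 0.42 for palbociclib (adjusted p = 0.000341). The abemaciclib call of KCNK15 in ZR-75-1 was lost without DMSO replicate 1, or abemaciclib replicate 1 or 2 (log2 1.07 to 1.17, adjusted p = 0.0797 to 0.0928).

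SLC39A6, a zinc importer also called LIV-1, was measured in CAMA-1 at 120.3, 132 and 121 CPM with DMSO, 155, 157 and 163 CPM with abemaciclib and 171, 174 and 158 CPM with palbociclib. It rose without overlap, by log2 0.35 ± 0.08 for abemaciclib (adjusted p = 0.000708) and 0.43 ± 0.08 for palbociclib (adjusted p = 4.64e-05). The levels of SLC39A6 in ZR-75-1 were 468, 484 and 473 CPM with DMSO, 568, 595 and 589 CPM with abemaciclib and 595, 574 and 602 CPM with palbociclib. Rises of the same order, again without overlap, were fitted at log2 0.30 ± 0.07 for abemaciclib (adjusted p = 0.000264) and 0.31 ± 0.07 for palbociclib (adjusted p = 0.000182).

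SLC7A2, a transporter of arginine and other cationic amino acids, was the other member called in both directions. In CAMA-1 it was at 60.5, 57.4 and 54.6 CPM with DMSO, 122, 132 and 128 CPM with abemaciclib and 129, 125 and 128 CPM with palbociclib. Both inhibitors raised it without overlap, with log2 fold changes of 1.15 ± 0.10 for abemaciclib (adjusted p = 3.39e-13) and 1.15 ± 0.10 for palbociclib (adjusted p = 2.65e-13). In ZR-75-1 the inhibitors parted, and SLC7A2 was at 76.7, 71.6 and 75.5 CPM with DMSO, 97.7, 91.1 and 102 CPM with abemaciclib and 70.0, 53.2 and 52.0 CPM with palbociclib. Abemaciclib libraries were above and palbociclib libraries below all DMSO libraries, with log2 fold changes of 0.38 ± 0.11 for abemaciclib (adjusted p = 0.00524) and −0.35 ± 0.11 for palbociclib (adjusted p = 0.017). The palbociclib call was lost without DMSO replicate 1, or palbociclib replicate 2 or 3 (log2 −0.33 to −0.27, adjusted p = 0.0594 to 0.113).

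SLC16A1, the monocarboxylate transporter MCT1 that carries lactate, fell with both inhibitors in CAMA-1, where it was at 53.5, 47.3 and 46.3 CPM with DMSO, 20.03, 19.0 and 24.8 CPM with abemaciclib and 26.6, 18.2 and 19.4 CPM with palbociclib. The inhibitor libraries lay below all DMSO libraries, with log2 fold changes of −1.19 ± 0.16 for abemaciclib (adjusted p = 6.88e-08) and −1.17 ± 0.16 for palbociclib (adjusted p = 6.85e-08). In ZR-75-1 the SLC16A1 groups overlapped DMSO, at 35.9, 50.3 and 38.6 CPM with DMSO, 27.8, 33.8 and 40.5 CPM with abemaciclib and 40.6, 46.3 and 41.3 CPM with palbociclib. Neither inhibitor was called for SLC16A1 in that line, with log2 fold changes of −0.30 ± 0.15 for abemaciclib (adjusted p = 0.124) and 0.03 ± 0.15 for palbociclib (adjusted p = 0.907). SCNN1A, the alpha subunit of the epithelial sodium channel, was called with palbociclib in both lines. The log2 fold change was 1.40 ± 0.45 (adjusted p = 0.0114) in CAMA-1, whereas ZR-75-1 gave 0.96 ± 0.15 (adjusted p = 1.02e-06). With abemaciclib it was called in neither line, at log2 −0.38 ± 0.55 and 0.29 ± 0.16. The CAMA-1 call of SCNN1A, from a DMSO mean of 2.51 ± 1.12 CPM, was lost without DMSO replicate 1 or 2, or palbociclib replicate 1 or 3 (log2 1.21 to 1.25, adjusted p = 0.0532 to 0.0688).

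**Figure D2:**
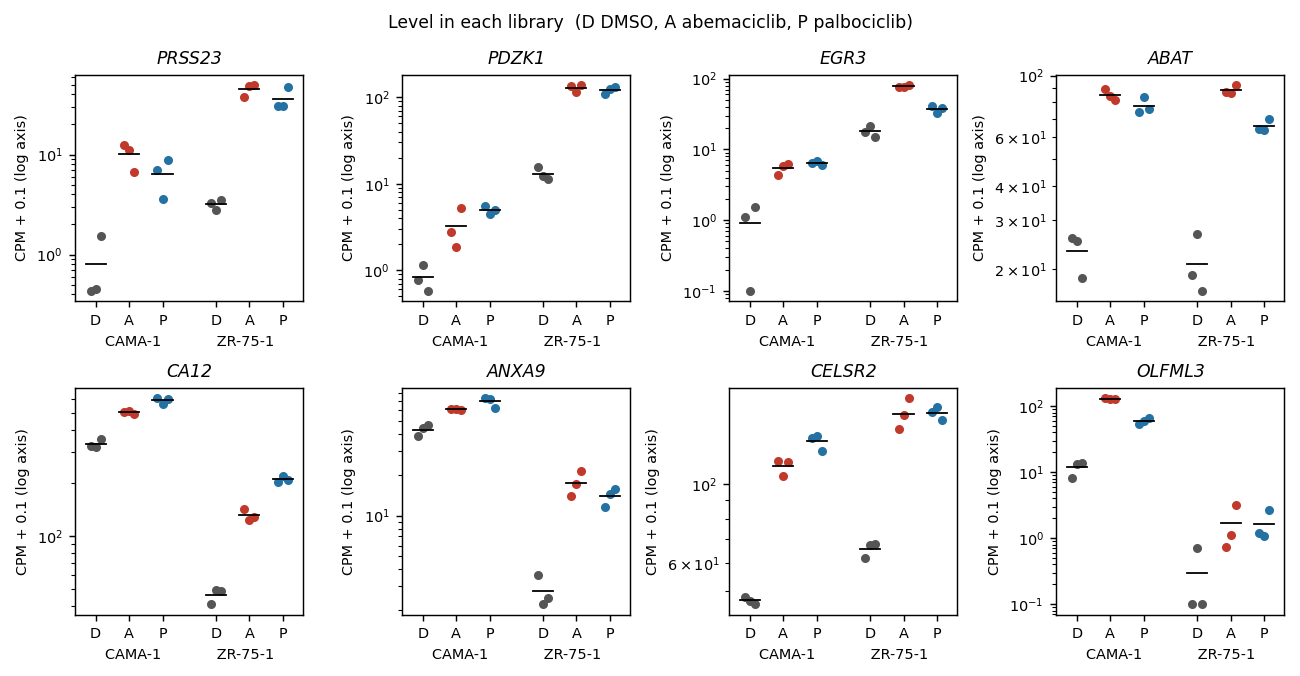
CPM plus 0.1 on a log axis of 8 genes with large increases in each of the 18 libraries (D, DMSO; A, abemaciclib; P, palbociclib), with a bar at the mean of each group. PDZK1 in ZR-75-1 goes from 11.2 to 15.4 CPM with DMSO to 108 to 139 CPM with an inhibitor, and OLFML3 is near 0 in ZR-75-1 but reaches 127 to 132 CPM with abemaciclib in CAMA-1.

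Among the members at the cell surface or secreted, 4 of 7 were called higher and 1 lower after abemaciclib in CAMA-1, 5 of 7 were higher after palbociclib in that line, and 3 and 4 of the 5 tested higher in ZR-75-1, with none lower in these 3 comparisons. PRSS23 (ENSG00000150687.12, chromosome 11, 86791059 to 86952910, plus strand), a secreted serine protease whose promoter letters are printed above, passed the filter in both lines only with the help of the inhibitor libraries. Its CAMA-1 levels were 0.332, 0.350 and 1.42 CPM with DMSO, 12.3, 11.0 and 6.67 CPM with abemaciclib and 6.84, 3.47 and 8.67 CPM with palbociclib. The DMSO values stand for 1, 1 and 6 counts, no inhibitor library reached down to them, and the log2 fold changes were 3.61 ± 0.51 for abemaciclib (adjusted p = 1.87e-07) and 2.94 ± 0.54 for palbociclib (adjusted p = 2.35e-05). Without DMSO replicate 3 these values were 4.72 and 4.05. In ZR-75-1, PRSS23 was at 3.21, 2.71 and 3.39 CPM with DMSO, 37.2, 48.7 and 49.7 CPM with abemaciclib and 30.2, 30.7 and 47.1 CPM with palbociclib. The inhibitor libraries lay far above DMSO without overlap, with log2 fold changes of 3.85 ± 0.25 for abemaciclib (adjusted p = 2.23e-19) and 3.53 ± 0.25 for palbociclib (adjusted p = 3.89e-17).

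OLFML3 (ENSG00000116774.12, chromosome 1, 113979391 to 114035572, plus strand), a secreted olfactomedin-domain protein of the matrix, was present in CAMA-1 at 7.98, 13.3 and 13.8 CPM with DMSO, 132, 127 and 128 CPM with abemaciclib and 54.0, 59.4 and 66.9 CPM with palbociclib. The 3 groups were fully apart, abemaciclib highest, with log2 fold changes of 3.44 ± 0.14 for abemaciclib (adjusted p = 6.19e-23) and 2.33 ± 0.15 for palbociclib (adjusted p = 2.62e-16). In ZR-75-1 it was barely detected, at 0, 0.602 and 0 CPM with DMSO, 0.647, 1.02 and 3.08 CPM with abemaciclib and 1.10, 0.992 and 2.60 CPM with palbociclib, and was not tested there. Over summed counts scaled for library totals, OLFML3 in ZR-75-1 had a ratio to DMSO of 7.07 with abemaciclib (95% counting interval 1.6 to 64.5) and 7.41 with palbociclib (1.74 to 66.5), from 0, 2 and 0 counts with DMSO.

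CELSR2 (ENSG00000143126.8, chromosome 1, 109249539 to 109275751, plus strand), an adhesion receptor of planar cell polarity, was measured in CAMA-1 at 48.2, 46.9 and 45.8 CPM with DMSO, 116, 105 and 116 CPM with abemaciclib and 135, 136 and 124 CPM with palbociclib. The groups did not overlap, palbociclib being highest, and the log2 fold changes were 1.26 ± 0.10 for abemaciclib (adjusted p = 9.66e-14) and 1.49 ± 0.10 for palbociclib (adjusted p = 3.59e-16). In ZR-75-1 the levels of CELSR2 were 61.9, 67.1 and 67.7 CPM with DMSO, 143, 156 and 174 CPM with abemaciclib and 159, 165 and 151 CPM with palbociclib. The rise was of the same order with each inhibitor, at log2 1.26 ± 0.10 for abemaciclib (adjusted p = 2.51e-16) and 1.27 ± 0.10 for palbociclib (adjusted p = 3.03e-16), without overlap.

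MUC1, a mucin of the apical surface, was the most abundant member in ZR-75-1. In CAMA-1 it stood at 172, 181 and 183 CPM with DMSO, 263, 262 and 229 CPM with abemaciclib and 305, 326 and 320.3 CPM with palbociclib. MUC1 groups did not overlap, palbociclib being highest, with log2 fold changes of 0.49 ± 0.08 for abemaciclib (adjusted p = 1.33e-06) and 0.82 ± 0.08 for palbociclib (adjusted p = 4.31e-12). The ZR-75-1 levels of MUC1 were 1055, 1071 and 1048 CPM with DMSO, 1741, 1770.3 and 1671 CPM with abemaciclib and 1574, 1404 and 1444 CPM with palbociclib. There abemaciclib was highest, again without overlap, with log2 fold changes of 0.71 ± 0.06 for abemaciclib (adjusted p = 1.06e-13) and 0.48 ± 0.06 for palbociclib (adjusted p = 2.86e-08).

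FCMR, the Fc receptor for IgM, fell with abemaciclib in CAMA-1, from few counts. Its levels there were 7.64, 4.90 and 8.31 CPM with DMSO, 2.14, 2.65 and 2.22 CPM with abemaciclib and 2.93, 4.34 and 6.24 CPM with palbociclib. The abemaciclib libraries lay below all others and the palbociclib libraries overlapped DMSO, with log2 fold changes of −1.60 ± 0.43 for abemaciclib (adjusted p = 0.00267) and −0.68 ± 0.38 for palbociclib (adjusted p = 0.168). In ZR-75-1 FCMR was at 8.02, 9.63 and 7.45 CPM with DMSO, 10.7, 9.48 and 15.8 CPM with abemaciclib and 10.7, 13.2 and 12.4 CPM with palbociclib. Neither inhibitor was called in that line, with log2 fold changes of 0.50 ± 0.28 for abemaciclib (adjusted p = 0.167) and 0.52 ± 0.27 for palbociclib (adjusted p = 0.156). NBL1, a secreted antagonist of bone morphogenetic proteins, was called once, with palbociclib in ZR-75-1 (log2 0.58 ± 0.10, adjusted p = 1.33e-05), where it went from 91.6 ± 14.7 to 137 ± 8.83 CPM (SD, n = 3). A readthrough gene, MICOS10-NBL1, overlaps NBL1 on the same strand. TSKU, a secreted leucine-rich proteoglycan, was called once, with palbociclib in CAMA-1 (log2 0.56 ± 0.17, adjusted p = 0.00935), with overlap of the libraries, and this call was lost without DMSO replicate 1, or palbociclib replicate 2 or 3 (log2 0.41 to 0.46, adjusted p = 0.0675 to 0.0902).

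The largest role group, of 11 members in membrane traffic, signalling and the cytoskeleton, had 6 of 10 tested members higher with each inhibitor in CAMA-1 and none lower, and in ZR-75-1 6 of 11 higher and 1 lower with abemaciclib and 5 higher with palbociclib. ANXA9 (ENSG00000143412.10, chromosome 1, 150982249 to 150995634, plus strand), a member of the annexin family of membrane-binding proteins, whose promoter letters are printed above, had 38.5, 44.1 and 46.3 CPM with DMSO, 61.4, 61.3 and 60.6 CPM with abemaciclib and 73.8, 73.0 and 62.4 CPM with palbociclib in CAMA-1. It rose there without overlap, by log2 0.50 ± 0.12 for abemaciclib (adjusted p = 0.000857) and 0.70 ± 0.12 for palbociclib (adjusted p = 6e-06). ZR-75-1 had little ANXA9 without an inhibitor, with 3.53, 2.11 and 2.37 CPM with DMSO, 13.9, 16.9 and 21.2 CPM with abemaciclib and 11.5, 14.2 and 15.6 CPM with palbociclib. The rise had no overlap either, with log2 fold changes of 2.68 ± 0.32 for abemaciclib (adjusted p = 8.63e-10) and 2.35 ± 0.33 for palbociclib (adjusted p = 7.42e-08).

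TPD52L1, a coiled-coil protein of the tumour protein D52 family, was found in CAMA-1 at 34.6, 30.5 and 28.3 CPM with DMSO, 48.1, 40.6 and 55.9 CPM with abemaciclib and 58.6, 51.0 and 56.8 CPM with palbociclib. Inhibitor libraries were all above DMSO, at log2 0.65 ± 0.14 for abemaciclib (adjusted p = 0.000222) and 0.84 ± 0.14 for palbociclib (adjusted p = 2.79e-06). In ZR-75-1 TPD52L1 was at 24.1, 29.5 and 26.1 CPM with DMSO, 63.4, 79.9 and 76.7 CPM with abemaciclib and 72.2, 70.7 and 77.4 CPM with palbociclib. It rose with each inhibitor without overlap, with log2 fold changes of 1.46 ± 0.13 for abemaciclib (adjusted p = 1.1e-13) and 1.46 ± 0.13 for palbociclib (adjusted p = 1.42e-13).

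WWC1, the Hippo pathway regulator KIBRA, was at 42.5, 51.5 and 59.1 CPM with DMSO, 99.1, 91.7 and 85.4 CPM with abemaciclib and 70.6, 71.5 and 73.1 CPM with palbociclib in CAMA-1. Abemaciclib libraries were highest and DMSO libraries lowest, without overlap, and the log2 fold changes were 0.84 ± 0.11 for abemaciclib (adjusted p = 7.51e-08) and 0.48 ± 0.12 for palbociclib (adjusted p = 0.000947). In ZR-75-1 WWC1 was at 12.5, 19.9 and 18.0 CPM with DMSO, 30.7, 32.8 and 31.2 CPM with abemaciclib and 25.2, 22.5 and 24.8 CPM with palbociclib. The same order without overlap was seen, with log2 fold changes of 0.91 ± 0.19 for abemaciclib (adjusted p = 7.26e-05) and 0.53 ± 0.19 for palbociclib (adjusted p = 0.0293). The difference of WWC1 between the inhibitors was called in neither line. The palbociclib call in ZR-75-1 was lost without DMSO replicate 1, or palbociclib replicate 1 or 3 (log2 0.35 to 0.51, adjusted p = 0.0736 to 0.225).

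RAB31, a small GTPase of vesicle transport, fell with abemaciclib in ZR-75-1 and was not called with palbociclib. Its ZR-75-1 levels were 18.6, 19.3 and 15.6 CPM with DMSO, 7.77, 5.08 and 4.24 CPM with abemaciclib and 21.4, 19.8 and 15.6 CPM with palbociclib. The 3 abemaciclib libraries were lowest and the palbociclib libraries overlapped DMSO, with log2 fold changes of −1.62 ± 0.27 for abemaciclib (adjusted p = 1.73e-06) and 0.09 ± 0.22 for palbociclib (adjusted p = 0.82). In CAMA-1 RAB31 had 1 to 6 counts per library, at 0.332, 0.70 and 0.237 CPM with DMSO, 1.60, 1.76 and 0.317 CPM with abemaciclib and 0.977, 0.869 and 0.347 CPM with palbociclib, and no fold is given.

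RAB17, a GTPase of polarised epithelial traffic, was called higher in ZR-75-1, by log2 0.72 ± 0.17 for abemaciclib (adjusted p = 0.000594) and 0.53 ± 0.17 for palbociclib (adjusted p = 0.0153), and with neither inhibitor in CAMA-1, at −0.06 and 0.12. The palbociclib call of RAB17 was lost without DMSO replicate 1, or palbociclib replicate 2 (log2 0.41 to 0.45, adjusted p = 0.0896 to 0.117). KAZN, a protein of cell junctions, went the other way, called in CAMA-1 with log2 fold changes of 0.93 ± 0.14 for abemaciclib (adjusted p = 5.86e-07) and 0.87 ± 0.14 for palbociclib (adjusted p = 1.95e-06) and not in ZR-75-1, at 0.12 and −0.19. SYBU, a kinesin adaptor also called syntabulin, was likewise called in CAMA-1 with both inhibitors, at log2 0.81 ± 0.30 for abemaciclib (adjusted p = 0.0276) and 1.25 ± 0.28 for palbociclib (adjusted p = 0.000435), but not in ZR-75-1, at 0.27 and −0.15. The abemaciclib call of SYBU was lost without DMSO replicate 1 or 3, or abemaciclib replicate 2 (log2 0.59 to 0.82, adjusted p = 0.0543 to 0.161). RAPGEFL1, related to exchange factors of Rap GTPases, was called in ZR-75-1 with log2 fold changes of 1.26 ± 0.22 for abemaciclib (adjusted p = 4.88e-06) and 1.77 ± 0.21 for palbociclib (adjusted p = 8.08e-10). In CAMA-1 its mean was 1.61 ± 0.336 CPM with DMSO and log2 fold changes of 1.23 ± 0.51 for abemaciclib (adjusted p = 0.0522) and 1.17 ± 0.50 for palbociclib (adjusted p = 0.0647) did not pass, although the libraries did not overlap. In the fit over all 18 libraries both were called, at 1.25 (adjusted p = 0.0192) and 1.20 (adjusted p = 0.0227).

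MREG, or melanoregulin, which shares its strand with the overlapping gene PECR and is a protein of organelle transport, was called in 3 comparisons, with CAMA-1 log2 fold changes of 0.52 ± 0.18 for abemaciclib (adjusted p = 0.0224) and 0.47 ± 0.18 for palbociclib (adjusted p = 0.0376) and a ZR-75-1 value of 0.99 ± 0.30 for abemaciclib (adjusted p = 0.00609). These calls were lost in CAMA-1 without DMSO replicate 1 or 3, or abemaciclib replicate 2 (log2 0.44 to 0.51, adjusted p = 0.0509 to 0.0932) for abemaciclib and without DMSO replicate 1, 2 or 3, or palbociclib replicate 1 (log2 0.26 to 0.49, adjusted p = 0.059 to 0.355) for palbociclib. The ZR-75-1 call was lost without abemaciclib replicate 3 (log2 0.78, adjusted p = 0.0695), and there the libraries overlapped DMSO. ADCY9, an adenylyl cyclase, and TBC1D30, a GTPase-activating protein for Rab proteins, were called in no comparison. The log2 fold changes of ADCY9 were between −0.35 and 0.37, with an interval of −0.90 to 0.20 for abemaciclib in CAMA-1. Those of TBC1D30 were between 0.06 and 0.27, with an interval of −0.44 to 0.87 for palbociclib in CAMA-1.

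The last group, of enzymes, ubiquitin pathway proteins and others, was called throughout in CAMA-1, with 5 of 7 members higher and 2 lower with each inhibitor. In ZR-75-1, 5 of the 7 were higher with each, and 1 was lower with abemaciclib. ABAT (ENSG00000183044.12, chromosome 16, 8674596 to 8784575, plus strand), the transaminase that breaks down the transmitter GABA, was at 25.9, 25.2 and 18.5 CPM with DMSO, 89.7, 84.2 and 81.6 CPM with abemaciclib and 73.8, 84.0 and 75.9 CPM with palbociclib in CAMA-1. Every inhibitor library was well above DMSO, with log2 fold changes of 1.90 ± 0.13 for abemaciclib (adjusted p = 8.41e-16) and 1.77 ± 0.13 for palbociclib (adjusted p = 9.29e-15). ABAT in ZR-75-1 was at 18.9, 26.8 and 16.6 CPM with DMSO, 87.0, 86.7 and 92.5 CPM with abemaciclib and 64.2, 63.5 and 69.6 CPM with palbociclib. The 3 groups were apart, abemaciclib highest, with log2 fold changes of 2.08 ± 0.14 for abemaciclib (adjusted p = 8.1e-19) and 1.65 ± 0.14 for palbociclib (adjusted p = 2.74e-14).

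SIAH2, an E3 ubiquitin ligase, was at 28.9, 28.4 and 29.4 CPM with DMSO, 90.0, 80.2 and 83.8 CPM with abemaciclib and 59.9, 62.2 and 66.6 CPM with palbociclib in CAMA-1. The groups did not overlap, abemaciclib being highest, and SIAH2 rose by log2 1.55 ± 0.12 for abemaciclib (adjusted p = 3.17e-14) and 1.11 ± 0.12 for palbociclib (adjusted p = 6.56e-10). In ZR-75-1, from a higher start, SIAH2 was at 118, 98.1 and 118 CPM with DMSO, 176, 176 and 187 CPM with abemaciclib and 140.5, 155 and 135 CPM with palbociclib. The order was the same without overlap, with log2 fold changes of 0.69 ± 0.09 for abemaciclib (adjusted p = 6.09e-09) and 0.37 ± 0.09 for palbociclib (adjusted p = 0.00127).

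TTC39A, a tetratricopeptide repeat protein, was measured in CAMA-1 at 35.6, 36.4 and 43.9 CPM with DMSO, 95.9, 72.7 and 74.6 CPM with abemaciclib and 106, 108 and 110.2 CPM with palbociclib. Palbociclib libraries were highest and the groups did not overlap, with log2 fold changes of 1.07 ± 0.12 for abemaciclib (adjusted p = 1.08e-09) and 1.47 ± 0.12 for palbociclib (adjusted p = 7.72e-14). In ZR-75-1 TTC39A levels were 116, 101 and 108 CPM with DMSO, 209, 220.0 and 189.7 CPM with abemaciclib and 198, 206 and 202 CPM with palbociclib. Both inhibitors raised it without overlap, by log2 0.93 ± 0.09 for abemaciclib (adjusted p = 1.7e-13) and 0.90 ± 0.09 for palbociclib (adjusted p = 1.03e-12).

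MINDY1, a deubiquitinase, had levels in CAMA-1 of 16.6, 17.2 and 14.5 CPM with DMSO, 24.3, 32.2 and 29.5 CPM with abemaciclib and 28.3, 33.9 and 28.4 CPM with palbociclib. All inhibitor libraries exceeded DMSO, at log2 0.83 ± 0.18 for abemaciclib (adjusted p = 0.00025) and 0.92 ± 0.18 for palbociclib (adjusted p = 4.47e-05). The ZR-75-1 levels of MINDY1 were 16.7, 17.5 and 23.4 CPM with DMSO, 35.6, 37.6 and 40.5 CPM with abemaciclib and 43.6, 34.0 and 33.8 CPM with palbociclib. The result was alike in size, without overlap, at log2 0.98 ± 0.17 for abemaciclib (adjusted p = 4.83e-06) and 0.96 ± 0.17 for palbociclib (adjusted p = 9.13e-06).

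ISG20L2, a nucleolar exoribonuclease of ribosomal RNA processing, had the smallest rises among genes called in all 4 comparisons. In CAMA-1 it was at 122, 119 and 129 CPM with DMSO, 158, 153 and 137 CPM with abemaciclib and 154, 142 and 147 CPM with palbociclib. No inhibitor library overlapped DMSO, and the log2 fold changes were 0.27 ± 0.09 for abemaciclib (adjusted p = 0.00996) and 0.26 ± 0.09 for palbociclib (adjusted p = 0.015). For ISG20L2 in ZR-75-1 the levels were 166, 191 and 179.5 CPM with DMSO, 220.1, 209.5 and 215 CPM with abemaciclib and 209, 226 and 213 CPM with palbociclib. Its log2 fold changes there were 0.27 ± 0.08 for abemaciclib (adjusted p = 0.00616) and 0.27 ± 0.08 for palbociclib (adjusted p = 0.00625), without overlap. The CAMA-1 calls of ISG20L2 were lost without abemaciclib replicate 1 (log2 0.23, adjusted p = 0.0703) for abemaciclib and without DMSO replicate 1 or 2, or palbociclib replicate 1 (log2 0.23 to 0.24, adjusted p = 0.0562 to 0.082) for palbociclib. The ZR-75-1 calls were lost without DMSO replicate 1 (log2 0.22, adjusted p = 0.0583) for abemaciclib and without DMSO replicate 1, or palbociclib replicate 2 (log2 0.22 to 0.23, adjusted p = 0.0535 to 0.0737) for palbociclib.

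SFN, or stratifin, an adaptor that binds phosphorylated proteins and is induced by p53, was the only member called lower in 3 of the 4 comparisons. In CAMA-1 it was at 260.2, 269.5 and 295 CPM with DMSO, 137, 158 and 137 CPM with abemaciclib and 169, 180.4 and 183 CPM with palbociclib. The inhibitor libraries were all below DMSO, with log2 fold changes of −0.94 ± 0.08 for abemaciclib (adjusted p = 6.51e-13) and −0.63 ± 0.08 for palbociclib (adjusted p = 1.13e-08). In ZR-75-1 SFN was at 184, 246 and 209 CPM with DMSO, 99.7, 101 and 88.7 CPM with abemaciclib and 177, 178 and 196 CPM with palbociclib. Abemaciclib libraries were lowest, palbociclib overlapped DMSO, and the log2 fold changes were −1.14 ± 0.09 for abemaciclib (adjusted p = 3.2e-15) and −0.21 ± 0.09 for palbociclib (adjusted p = 0.0594), so that only abemaciclib was called. ELOVL2, an elongase of very long polyunsaturated fatty acids, fell in CAMA-1, where it was at 86.4, 86.1 and 73.6 CPM with DMSO, 40.3, 49.4 and 40.3 CPM with abemaciclib and 51.6, 44.9 and 48.9 CPM with palbociclib. Its inhibitor libraries lay below all DMSO libraries, with log2 fold changes of −0.93 ± 0.12 for abemaciclib (adjusted p = 2.98e-08) and −0.75 ± 0.12 for palbociclib (adjusted p = 1.31e-06). In ZR-75-1 ELOVL2 was at 24.1, 19.3 and 13.5 CPM with DMSO, 29.4, 25.0 and 18.1 CPM with abemaciclib and 25.0, 26.1 and 28.0 CPM with palbociclib. The log2 fold changes of 0.36 ± 0.20 for abemaciclib (adjusted p = 0.167) and 0.47 ± 0.20 for palbociclib (adjusted p = 0.0652) were not called in that line. The palbociclib value was called in the fit over all 18 libraries (adjusted p = 0.0373), with a replicate block (adjusted p = 0.045) and without DMSO replicate 1 (log2 0.67, adjusted p = 0.022).

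**Figure D3:**
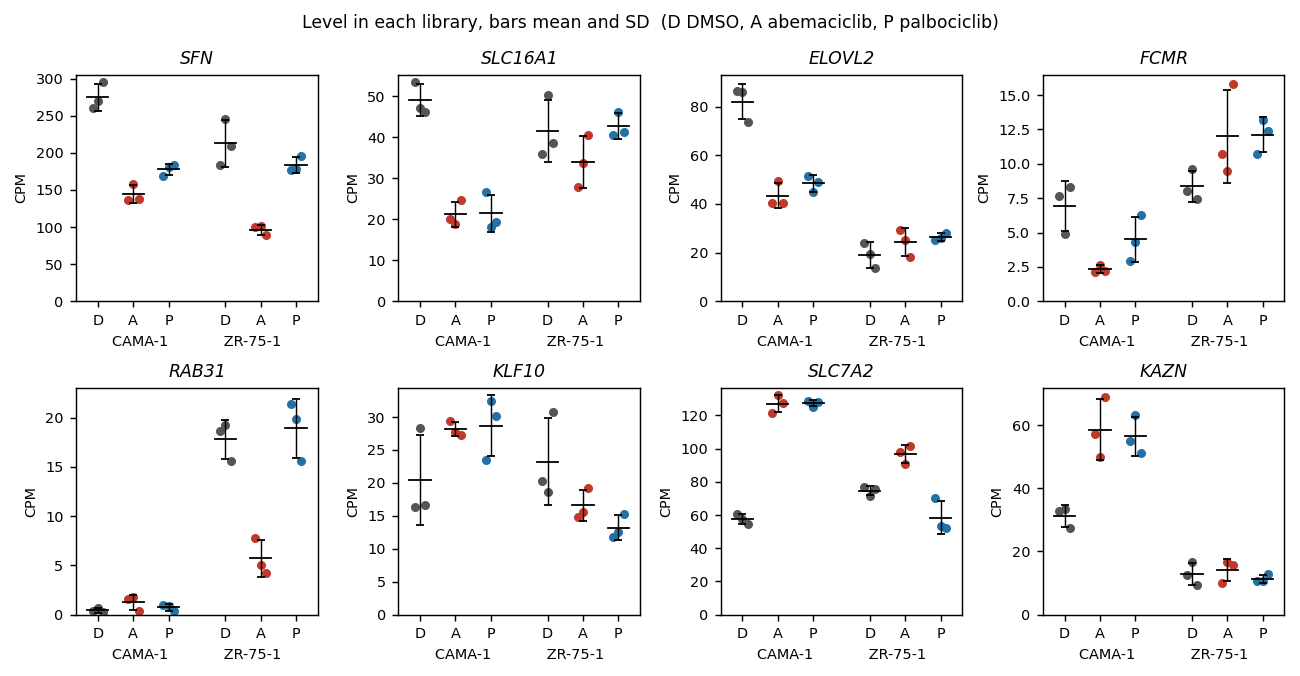
CPM of 8 genes that fell or whose response differed between the lines, in each of the 18 libraries (D, DMSO; A, abemaciclib; P, palbociclib), with the mean and SD of each group. SFN falls below 160 CPM with abemaciclib in CAMA-1 and to 88.7 to 101 CPM in ZR-75-1, and RAB31 falls to 4.24 to 7.77 CPM with abemaciclib in ZR-75-1.

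The inhibitors were then compared with each other, at the same dose and time, for the 38 tested members of each line. In CAMA-1, 2 members were higher with abemaciclib, against 0.796% of all tested genes, and 4 were lower, against 1.53%. SIAH2 was higher with abemaciclib by log2 0.44 ± 0.11 (adjusted p = 0.016) and OLFML3 by 1.11 ± 0.11 (adjusted p = 2.46e-09). Lower with abemaciclib were SFN (log2 −0.31 ± 0.08, adjusted p = 0.0313), TTC39A (−0.40 ± 0.11, adjusted p = 0.0314), MUC1 (−0.34 ± 0.07, adjusted p = 0.00528) and SCNN1A (−1.78 ± 0.48, adjusted p = 0.0314). Of these 6, OLFML3 alone was called under every alternative setting. The count of lower members was 0 without abemaciclib replicate 3 and 1 to 3 without any other single abemaciclib or palbociclib library. DMSO libraries were not left out for this comparison. SIAH2 was lost without abemaciclib replicate 1 or 3, or palbociclib replicate 1 or 2 (log2 0.39 to 0.45, adjusted p = 0.0561 to 0.126), SFN without abemaciclib replicate 1 or 3, or palbociclib replicate 1, 2 or 3 (log2 −0.34 to −0.27, adjusted p = 0.0619 to 0.174) and TTC39A without abemaciclib replicate 2 or 3, or palbociclib replicate 1, 2 or 3 (log2 −0.42 to −0.33, adjusted p = 0.101 to 0.205). MUC1 was lost without abemaciclib replicate 3 (log2 −0.27, adjusted p = 0.0915) and SCNN1A without abemaciclib replicate 1 or 3, or palbociclib replicate 1 or 3 (log2 −2.0 to −1.32, adjusted p = 0.0858 to 0.253).

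In ZR-75-1, 7 members were higher with abemaciclib than with palbociclib, against 5.23% of all tested genes, and 6 were lower, against 7.94%. EGR3 differed most among the higher ones, by log2 1.07 ± 0.13 (adjusted p = 5.58e-09). It was followed by SLC7A2 (0.72 ± 0.11, adjusted p = 1.85e-06), BHLHE40 (0.47 ± 0.14, adjusted p = 0.0149) and ABAT (0.43 ± 0.12, adjusted p = 0.00775). SIAH2 (0.33 ± 0.09), TOB1 (0.27 ± 0.08) and MUC1 (0.23 ± 0.06) were higher by smaller amounts. Lower with abemaciclib were RAB31 (−1.71 ± 0.27, adjusted p = 1.86e-06), SFN (−0.93 ± 0.09, adjusted p = 2.43e-11) and CA12 (−0.67 ± 0.09, adjusted p = 2.86e-08). SCNN1A (−0.66 ± 0.15), NBL1 (−0.36 ± 0.10) and MYB (−0.33 ± 0.11) were lower by less. The calls of MYB, BHLHE40, TOB1, MUC1 and NBL1 were each lost without at least 1 library. MYB was also lost with RLE or upper-quartile scaling, without the filter, in the fit over 18 libraries and with DESeq2 (adjusted p = 0.0553 to 0.2). DESeq2 likewise lost BHLHE40 (adjusted p = 0.0761) and NBL1 (adjusted p = 0.0729). BHLHE40 was lost without abemaciclib replicate 3 (log2 0.34, adjusted p = 0.176), MUC1 without palbociclib replicate 2 (log2 0.21, adjusted p = 0.0591), TOB1 without abemaciclib replicate 1, or palbociclib replicate 3 (log2 0.22 to 0.26, adjusted p = 0.0656 to 0.11), NBL1 without abemaciclib replicate 1 or 3, or palbociclib replicate 2 (log2 −0.34 to −0.28, adjusted p = 0.0565 to 0.132) and MYB without abemaciclib replicate 2 or 3, or palbociclib replicate 1 or 3 (log2 −0.31 to −0.24, adjusted p = 0.139 to 0.267).

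Not called between the inhibitors were 32 members in CAMA-1 and 25 in ZR-75-1. For GREB1 the 95% interval of the log2 difference was −0.16 to 0.26 in CAMA-1 and −0.36 to 0.01 in ZR-75-1. The interval for PDZK1 was narrow in ZR-75-1, at −0.10 to 0.30, and wide in CAMA-1, at −1.49 to 0.33, where its counts were low. CELSR2 had intervals of −0.41 to −0.05 and −0.19 to 0.17, and SLC39A6 of −0.24 to 0.09 and −0.15 to 0.12. KCNK15, with few counts, had intervals of −1.11 to 0.07 and −1.31 to 0.17, which hold differences of over 1 log2 unit towards palbociclib. These intervals are not adjusted for the number of genes.

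**Figure D4:**
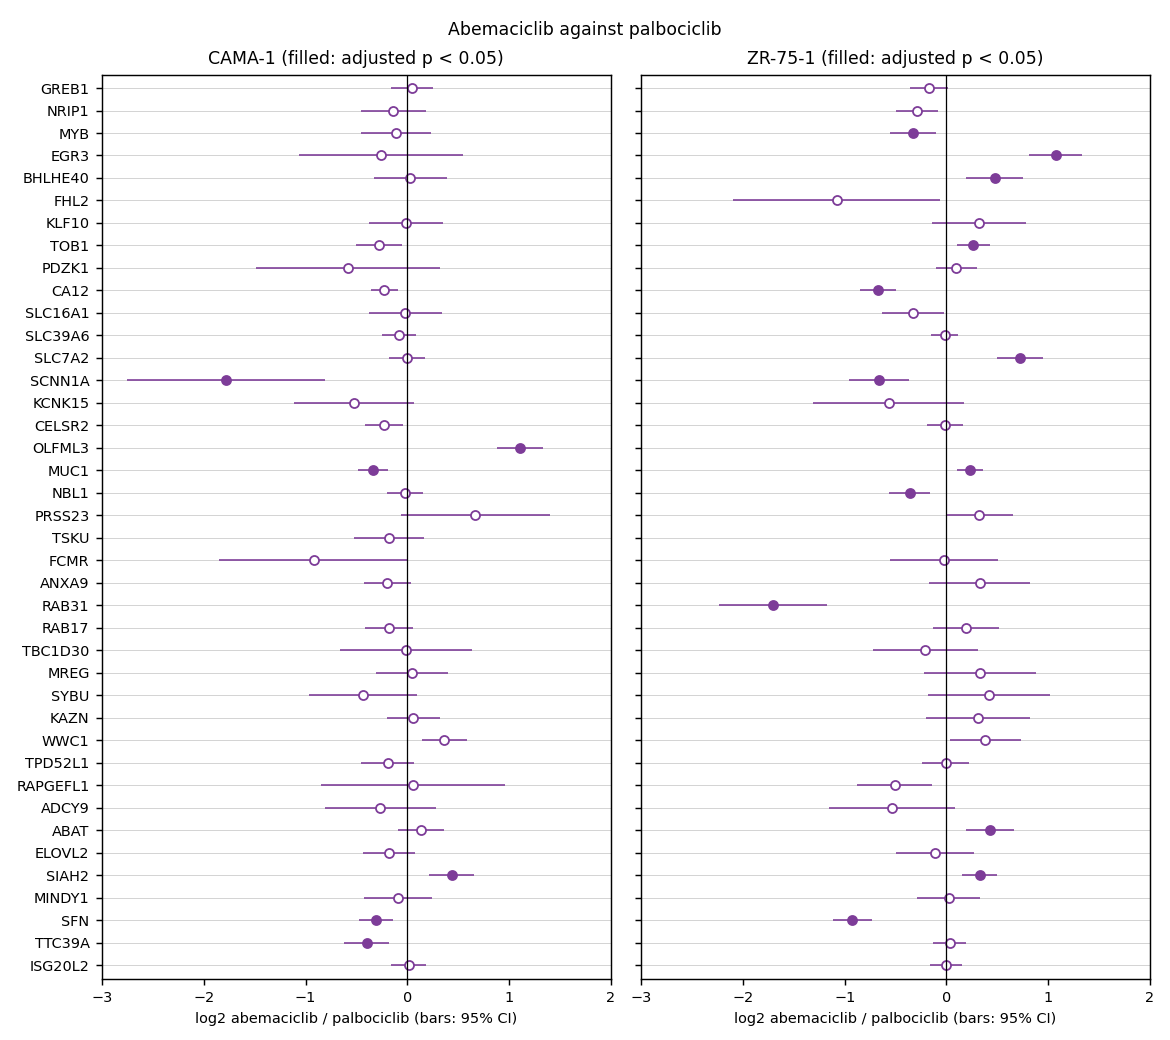
Log2 ratio of abemaciclib to palbociclib for each tested member (rows) in CAMA-1 (left) and ZR-75-1 (right), with 95% confidence intervals as bars and called genes filled. OLFML3 lies furthest right in CAMA-1, and EGR3 and RAB31 lie at the ends of the range in ZR-75-1.

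Finally the responses of the lines were compared by the interaction, subtracting the log2 fold change of CAMA-1 from that of ZR-75-1, over all 18 libraries. For abemaciclib, 8 of the 40 members had a higher response in ZR-75-1, against 8.19% of all tested genes, and 6 a lower one, against 10.0%. The higher ones were ANXA9, FCMR, ELOVL2, CA12, SLC16A1, TPD52L1, RAB17 and TOB1, and the lower ones were RAB31, KLF10, SIAH2, KAZN, SLC7A2 and NRIP1. For palbociclib, 7 members had a higher response in ZR-75-1, against 10.0% of tested genes, and 8 a lower one, against 10.3%. The higher ones were ANXA9, CA12, ELOVL2, SLC16A1, TPD52L1, NBL1 and SFN, and the lower ones were EGR3, SLC7A2, SYBU, KLF10, KAZN, SIAH2, TTC39A and MUC1. For ELOVL2, SLC16A1, FCMR (abemaciclib) and SFN (palbociclib), a higher response sets a fall in CAMA-1 against a difference that was not called in the fit of ZR-75-1. The value for RAB31 rests on 1 to 6 counts per library in CAMA-1. Both interactions used the same DMSO libraries. Starting levels of several of these genes differed between the lines. ANXA9 had a DMSO mean of 43.0 ± 4.00 CPM in CAMA-1 and 2.67 ± 0.757 CPM in ZR-75-1 (SD, n = 3), and CA12 had 334 ± 18.5 and 46.2 ± 4.71 CPM. SIAH2, by contrast, had 28.9 ± 0.544 CPM in CAMA-1 and 111 ± 11.3 CPM in ZR-75-1, and responded more in CAMA-1. Other members responded more in the line where they started higher. KAZN had DMSO means of 31.3 CPM in CAMA-1 and 12.9 CPM in ZR-75-1, and responded more in CAMA-1. TOB1 had 73.8 and 183 CPM, and responded more to abemaciclib in ZR-75-1. A link between starting level and response was not tested.

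**Figure D5:**
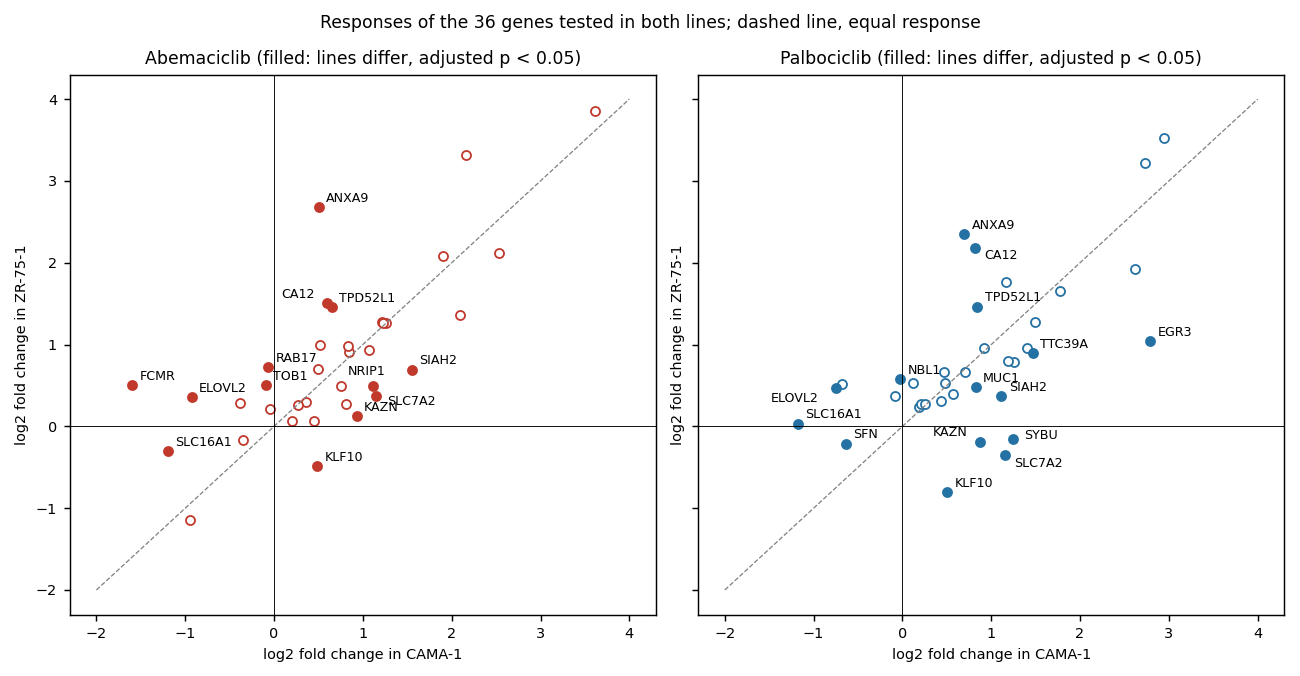
Log2 fold change against DMSO in CAMA-1 (horizontal) and ZR-75-1 (vertical) of the 36 members tested in both lines, for abemaciclib (left) and palbociclib (right). Filled and named points differed between the lines by the interaction test, and the dashed line marks equal responses. ANXA9 and CA12 lie well above the line with both inhibitors, and SLC7A2, KLF10 and KAZN lie below it.

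Other genes of the pathway were counted beside the members. Of 17 genes for the receptor and its partners (ESR1, FOXA1, GATA3, TFAP2C, coactivators and corepressors), abemaciclib raised 4 and lowered 2 in CAMA-1, and palbociclib raised 3 and lowered 2. These are 23.5% and 11.8%, then 17.6% and 11.8%, of the list, where 20.3% and 20.1%, then 18.4% and 18.7%, of all tested genes were called. In ZR-75-1, 5 were higher and 2 lower with abemaciclib, and 3 higher and 7 lower with palbociclib. The shares were 29.4% and 11.8%, then 17.6% and 41.2%, against 17.9% and 18.3%, then 14.5% and 13.4%, of all tested genes. The medians of this list were between −0.18 and 0.082 on the log2 scale. ESR1 itself was at 39.9, 47.3 and 61.0 CPM with DMSO, 84.9, 94.8 and 94.9 CPM with abemaciclib and 93.8, 109 and 80.1 CPM with palbociclib in CAMA-1. It rose without overlap, by log2 0.86 ± 0.13 for abemaciclib (adjusted p = 2.8e-07) and 0.91 ± 0.12 for palbociclib (adjusted p = 6.96e-08), the largest increase of this list in that line. In ZR-75-1 ESR1 was at 166, 183 and 157 CPM with DMSO, 359, 307 and 319.7 CPM with abemaciclib and 305, 281 and 275 CPM with palbociclib. There too its rise, of log2 0.96 ± 0.08 for abemaciclib (adjusted p = 3.91e-15) and 0.77 ± 0.08 for palbociclib (adjusted p = 1.82e-11), was the largest of the list. The largest decreases called in the list were of TFAP2C in CAMA-1 with abemaciclib (log2 −0.33), GATA3 in the same line with palbociclib (−0.31), CREBBP in ZR-75-1 with abemaciclib (−0.24) and NCOA2 in that line with palbociclib (−0.50).

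A further 30 oestrogen-induced genes, among them TFF1, PGR, CCND1 and the simple keratins, had 29 tested in each line. In CAMA-1, abemaciclib raised 22 and lowered 3, and palbociclib raised 21 and lowered 1, with median log2 fold changes of 0.75 and 0.84. The shares higher and lower were 75.9% and 10.3%, then 72.4% and 3.45%, against 20.3% and 20.1%, then 18.4% and 18.7%, of all tested genes. In ZR-75-1, 14 were higher and 2 lower with abemaciclib, and 14 higher and 7 lower with palbociclib, with medians of 0.25 and 0.29. There the shares were 48.3% and 6.9%, then 48.3% and 24.1%, against 17.9% and 18.3%, then 14.5% and 13.4%. The largest called increases were of HSPB8, a small heat shock protein, with abemaciclib in both lines (log2 2.65 ± 0.27 in CAMA-1), of FOS, an immediate early factor, with palbociclib in CAMA-1 (3.28 ± 0.25), and of TFF1, a secreted trefoil factor, with palbociclib in ZR-75-1 (2.09 ± 0.07). HSPB8 in ZR-75-1 had only 2, 1 and 4 counts with DMSO, against 34, 48 and 18 with abemaciclib, so that its fitted log2 fold change of 3.87 ± 0.53 rests on a low base. In CAMA-1 its DMSO libraries held 41, 75 and 14 counts. The largest called decreases were of BCL2, an inhibitor of apoptosis, with abemaciclib in CAMA-1 (−1.22 ± 0.47), FKBP4, a chaperone of steroid receptors, with palbociclib in CAMA-1 (−0.28 ± 0.09), AREG, an epidermal growth factor receptor ligand, with abemaciclib in ZR-75-1 (−0.59 ± 0.13), and FOS with palbociclib in ZR-75-1 (−1.49 ± 0.34). FOS was at 19.3, 25.0 and 3.73 CPM with DMSO, 32.7, 40.3 and 45.5 CPM with abemaciclib and 2.74, 6.94 and 7.80 CPM with palbociclib in ZR-75-1, where 1 DMSO library lay well below the other 2. Leaving out single libraries was not run for these list genes.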

How the data were processed

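RNA of 18 cultures was measured by 3′ messenger RNA sequencing (Lexogen). The authors trimmed reads with BBDuk, aligned them to hg38 with STAR 2.7.5b and counted them per gene with featureCounts 2.0.1 on a GENCODE annotation, and deposited the raw counts. The strand, multi-mapping and molecular identifier settings are not given in the sources used here, and the labels and the methods name opposite strand versions of the kit.

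Libraries were grouped by cell line and treatment from the labels. Counts were tested in R 4.3.3 with edgeR 4.0.16 (filterByExpr, TMM scaling, quasi-likelihood F test, Benjamini-Hochberg adjustment over all genes tested, called at an adjusted p under 0.05), with 1 fit per line over its 9 libraries and 1 fit over 18 libraries for differences between the lines. The alternatives were RLE and upper-quartile scaling, no filter, DESeq2 1.42.0, a replicate block, a fit over all libraries, mitochondrially encoded genes left out, and each library of the groups compared left out. Intervals on summed counts are exact at 95% and cover counting error only. Coordinates are from GENCODE 44 (GRCh38), and promoter letters from RefSeq.

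The members and the lists beside them were chosen with earlier results of these data known, and 1 gene of the receptor list is not reported here. Levels in every library are given for members called in 1 direction in all 4 comparisons with DMSO, for members called in both directions, and for the 2 largest called changes in each direction of each comparison. The other members, and those that differed between inhibitors or lines, are given by fold changes. Of the lists beside them, ESR1 and the largest called change in each direction were named.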

Additional observations from a re-analysis of the deposited data

Results flagged for a closer look

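The responses of some members differed between the lines when the difference itself was tested (edgeR interaction over all 18 libraries, the log2 response of CAMA-1 subtracted from that of ZR-75-1, with its standard error), and each of these is listed with its value. With abemaciclib the difference was 2.15 ± 0.32 for ANXA9, 2.08 ± 0.50 for FCMR, 1.26 ± 0.23 for ELOVL2 and 0.89 ± 0.12 for CA12. It was 0.87 ± 0.23 for SLC16A1, 0.78 ± 0.20 for TPD52L1, 0.76 ± 0.20 for RAB17 and 0.57 ± 0.14 for TOB1. Responses lower in ZR-75-1 differed by −1.0 ± 0.29 for KLF10, −0.88 ± 0.15 for SIAH2, −0.83 ± 0.27 for KAZN, −0.79 ± 0.15 for SLC7A2 and −0.64 ± 0.20 for NRIP1. RAB31 had a fitted difference of −3.15 ± 0.85, which depends on the prior count because its CAMA-1 libraries held 1 to 6 counts, and the call was lost without CAMA-1 abemaciclib replicate 1 (log2 −2.79, adjusted p = 0.0606). NRIP1 was lost without CAMA-1 DMSO replicate 1 or 2, or CAMA-1 abemaciclib replicate 2 or 3, or ZR-75-1 DMSO replicate 1, or ZR-75-1 abemaciclib replicate 1 (log2 −0.58 to −0.52, adjusted p = 0.0514 to 0.0869). KLF10 was lost without CAMA-1 DMSO replicate 1 or 3, or ZR-75-1 DMSO replicate 3 (log2 −0.82 to −0.75, adjusted p = 0.0539 to 0.0839). KAZN was lost without CAMA-1 DMSO replicate 3, or CAMA-1 abemaciclib replicate 3, or ZR-75-1 DMSO replicate 2, or ZR-75-1 abemaciclib replicate 1 (log2 −0.69 to −0.55, adjusted p = 0.0826 to 0.223).

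With palbociclib the difference was 1.63 ± 0.32 for ANXA9, 1.34 ± 0.12 for CA12, 1.19 ± 0.22 for ELOVL2 and 1.18 ± 0.22 for SLC16A1. It was 0.59 ± 0.19 for TPD52L1, 0.57 ± 0.14 for NBL1 and 0.39 ± 0.12 for SFN. Palbociclib responses lower in ZR-75-1 differed by −1.76 ± 0.49 for EGR3, −1.53 ± 0.15 for SLC7A2, −1.42 ± 0.41 for SYBU and −1.33 ± 0.29 for KLF10. They differed by −1.09 ± 0.27 for KAZN, −0.77 ± 0.15 for SIAH2, −0.60 ± 0.15 for TTC39A and −0.37 ± 0.09 for MUC1. EGR3 was −2.49 without CAMA-1 DMSO replicate 3 and was lost without CAMA-1 DMSO replicate 2 (log2 −1.25, adjusted p = 0.0628), SFN without ZR-75-1 DMSO replicate 1 (log2 0.30, adjusted p = 0.0897) and TPD52L1 without CAMA-1 DMSO replicate 1, or ZR-75-1 DMSO replicate 1 (log2 0.53 to 0.55, adjusted p = 0.0538 to 0.0667).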

How the results depend on the processing

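Calls were repeated with RLE or upper-quartile scaling, without the filter on low counts, with DESeq2, with 1 fit over all 18 libraries, without mitochondrially encoded genes and without each library of the groups compared in turn. Of the member values under these settings and the replicate block, 4241 kept their side of the threshold, 132 lost a call and 31 gained one. No value called in either fit changed sign, and sign changes of values called in neither were not counted. Calls kept under every setting were 24 of 30 for abemaciclib and 26 of 31 for palbociclib in CAMA-1, 23 of 26 and 20 of 27 in ZR-75-1, 1 of 6 and 8 of 13 between the inhibitors in CAMA-1 and ZR-75-1, and 10 of 14 and 12 of 15 between the lines for abemaciclib and palbociclib. DESeq2 lost 18 calls. Against DMSO in CAMA-1 these were MYB, KLF10, MREG and SYBU with abemaciclib, and KLF10, SCNN1A and MREG with palbociclib. In ZR-75-1 they were KCNK15 with abemaciclib, and TOB1, SLC7A2, RAB17 and WWC1 with palbociclib. Between the inhibitors they were SCNN1A, SIAH2 and TTC39A in CAMA-1, and MYB, BHLHE40 and NBL1 in ZR-75-1. For SCNN1A DESeq2 gave no adjusted p, at log2 −1.77, and this was counted as a lost call. DESeq2 left 1 member lower with palbociclib in ZR-75-1 in place of 2, and 1 higher with abemaciclib than with palbociclib in CAMA-1 in place of 2. Without 1 library these counts were 1 to 2 and 1 to 2, and the count lower with abemaciclib than with palbociclib in CAMA-1, 4 with all libraries, was 0 to 3. The causes were not tested. RLE and upper-quartile scaling moved the median of all genes by at most 0.0291 on the log2 scale, and leaving out mitochondrially encoded genes by at most 0.0478.

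Replicate numbers did not pair the libraries. Deviations from the group means correlated at −0.0777 to 0.0122 in CAMA-1 and −0.0297 to 0.0064 in ZR-75-1 between libraries of the same number (9 pairs a line), and at −0.0349 to 0.0497 and −0.0186 to 0.0321 between those of different numbers. With a replicate block, 25 members were called higher and 4 lower for abemaciclib in CAMA-1, 27 higher and 3 lower for palbociclib in that line, and for ZR-75-1 24 higher and 2 lower for abemaciclib, and 26 higher and 2 lower for palbociclib. Between the inhibitors the block called 2 higher and 4 lower in CAMA-1, and in ZR-75-1 it called 7 in each direction. Between the lines it called 8 higher and 6 lower for abemaciclib, and 7 higher and 8 lower for palbociclib. The shares of all tested genes called with the block were not computed.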
